A study of Homo sapiens with 9 samples.

Results

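The genes examined here are 10 classical markers and regulators of the epithelial-mesenchymal transition (EMT), namely CDH1, EPCAM, CDH2, VIM, FN1, ZEB1, ZEB2, SNAI1, SNAI2 and TWIST1. They were taken by gene symbol, with no threshold on a measured value, and are 10 of the 60966 genes in the deposited tables. Their choice was made with earlier results of these data known. RNA-seq was carried out on the human lung cancer cell line H1299, and the question was how their RNA changed when FIBP, an intracellular binding partner of acidic fibroblast growth factor, was depleted. Cells were transfected with a scrambled control siRNA (Scramble) or with 1 of 2 siRNAs against FIBP (Si-FIBP#1 or Si-FIBP#2), and each group had 3 samples. All groups were the same wild-type line, received siRNA at a single dose and were harvested at a single time, so every difference is between transfected cells. Poly(A) RNA was sequenced.

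In EMT, epithelial cells give up their junctions and polarity and take on a motile, spindle-shaped form. E-cadherin (CDH1) and EpCAM hold epithelial cells together, N-cadherin (CDH2), vimentin (VIM) and fibronectin (FN1) mark the mesenchymal state, and transcription factors of the ZEB, SNAI and TWIST families repress epithelial genes through E-box sequences. ZEB1 and ZEB2 and the microRNAs of the miR-200 family repress each other. Many lung cancer lines are fixed toward one end of this range.

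The sequences behind that last loop are given first, because ZEB1 and ZEB2 were both expressed while the miR-200c and miR-141 host gene was not. MIR200CHG, the host gene on chromosome 12, was listed at 0 FPKM in all 9 samples, but poly(A) libraries do not measure mature microRNAs. The mature sequences come from RefSeq (GRCh38.p14), are written from 5′ to 3′, and have the seed (bases 2 to 8) in capitals. Family members with the first seed were
hsa-miR-200b-3p: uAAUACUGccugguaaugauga
hsa-miR-200c-3p: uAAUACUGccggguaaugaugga
hsa-miR-429: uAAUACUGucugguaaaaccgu
and those with the other seed were
hsa-miR-141-3p: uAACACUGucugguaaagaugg
hsa-miR-200a-3p: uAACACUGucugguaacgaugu

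The complement of the first seed is CAGTATT and that of the other is CAGTGTT, searched on the transcript strand only. In the longest annotated 3′ UTR of each gene (GENCODE release 29, GRCh38), ZEB1 held 6 CAGTATT and 3 CAGTGTT sites in 2549 nt, and ZEB2 held 5 and 4 in 5370 nt. FN1 held 2 and SNAI2 held 1 CAGTATT site, and neither had CAGTGTT. The SNAI2 transcript searched, ENST00000642303, was not among the transcripts listed for these samples. CDH1, EPCAM, CDH2, VIM, SNAI1 and TWIST1 held 0 of both. Among 18276 genes, 16.8% had at least 1 CAGTATT and 19.2% at least 1 CAGTGTT, at 0.117 and 0.135 sites per kb. The transcripts searched, ENST00000446923 for ZEB1 and ENST00000638128 for ZEB2, were chosen for length and averaged only 0.070 FPKM each in Scramble. A match is a description and not proof of a working site. The following 4 sites, with the match in capitals, illustrate the pairing, on the plus strand for ZEB1 (chr10:31527618-31527641 and chr10:31528031-31528054) and on the minus strand for ZEB2 (chr2:144389051-144389074 and chr2:144389235-144389258).
ZEB1 CAGTATT site: attgttttatcttatCAGTATTat
ZEB1 CAGTGTT site: caaaatcatcagaatCAGTGTTtg
ZEB2 CAGTATT site: cgcactaccatacatCAGTATTtt
ZEB2 CAGTGTT site: tgcaaaaattttgtaCAGTGTTaa

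Levels are in FPKM, a measure of fragments relative to transcript length and sequencing depth, summed over the transcripts of a gene. The depth of the libraries, estimated from the smallest steps between low values, ranged from 20150000 to 23800000 fragments. FIBP averaged 81.9 FPKM in Scramble, 6.52 after Si-FIBP#1 and 7.09 after Si-FIBP#2. In FPM, a length-weighted scale described with FN1 and chosen after seeing the data, FIBP averaged 107, 21.1 and 23.2. The fall of FIBP was thus smaller on that scale. Within groups, the correlation of samples over tested genes was 0.983 to 0.988, and Si-FIBP#2 replicate 2 gave the lowest values. The lung epithelial genes NKX2-1, SFTPB, SFTPC, NAPSA and SCGB1A1 stayed under 1 FPKM in every sample. Of 5 marker genes each for fibroblasts, leukocytes and endothelium, only CD68 reached 1 FPKM in 3 samples, while PTPRC and CD3E were at or near 0. CD68 was at 31 to 33.01 FPKM in Scramble, 37.61 to 40.28 after Si-FIBP#1 and 50.86 to 66.96 after Si-FIBP#2. Every depleted sample thus lay above Scramble, which held for 26.3% of tested genes, and the part of CD68 in the results was not tested. The summed fibroblast markers ranged from 0.22 to 0.57 FPKM in Scramble, 0.91 to 1.79 after Si-FIBP#1 and 1.25 to 3.17 after Si-FIBP#2, and their part in the results on mesenchymal genes was not tested.

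**Figure D1:**
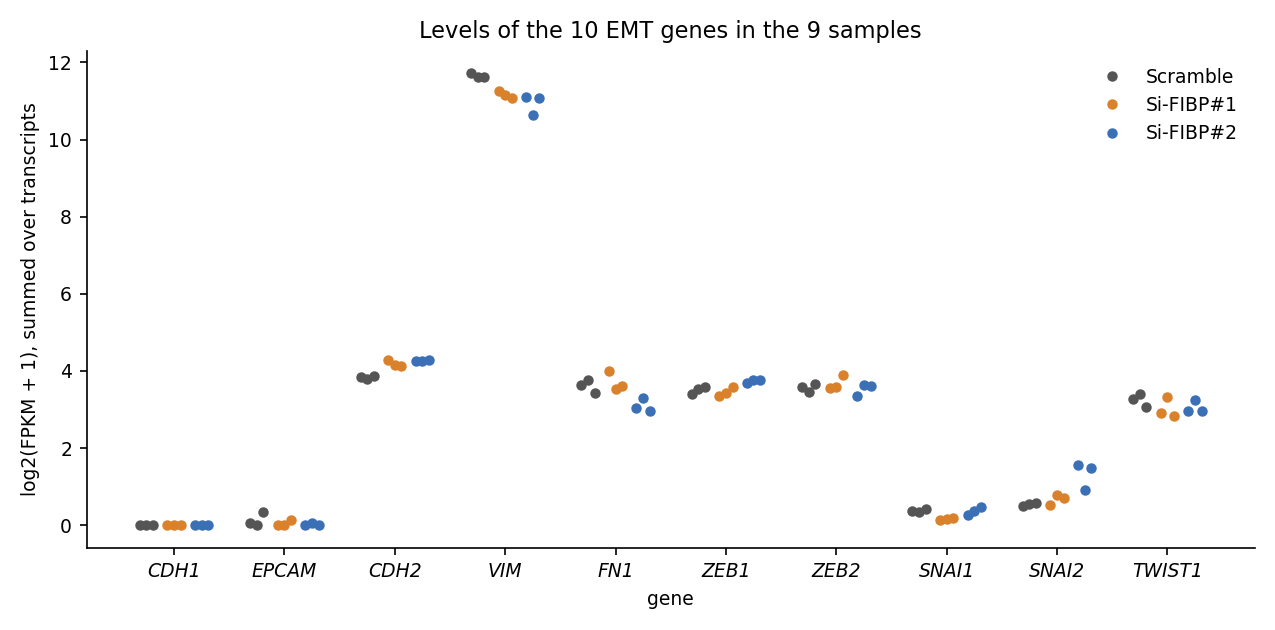
Level of each of the 10 EMT genes in the 9 samples, as log2(FPKM + 1) on the vertical axis, with 1 point per sample coloured by group. VIM lies far above the other genes, CDH2, FN1, ZEB1, ZEB2 and TWIST1 lie close together, and CDH1, EPCAM, SNAI1 and SNAI2 lie near the bottom.

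Among the 10 members, H1299 cells had a mesenchymal profile in all 3 groups. Outside the members some epithelial genes were well expressed, with Scramble means of 476 FPKM for KRT18 and 107 FPKM for KRT8. VIM ranked 28 among the 26929 genes with a Scramble mean above 0, while CDH1 was listed at 0. CDH2, FN1, ZEB1, ZEB2 and TWIST1 lay between 8.48 and 13.3 FPKM in the Scramble mean, at ranks 6426 to 8063. The Scramble means of CDH2 and FN1 were 13.3 and 11.2 FPKM, those of ZEB2 and ZEB1 were 10.9 and 10.4 FPKM, and the sample values of FN1, ZEB2 and ZEB1 overlapped. SNAI1 and SNAI2 stayed under 1 FPKM in Scramble.

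The filter was passed by 6 members, those reaching 1 FPKM in 3 or more samples, and these were tested with limma on log2(FPKM + 1), together with 14985 genes in all. CDH1, EPCAM, SNAI1 and SNAI2 did not pass it. After Si-FIBP#1, 1 tested member rose (CDH2) and 1 fell (VIM), at a Benjamini-Hochberg adjusted p below 0.05, whereas 47.7% of all tested genes passed, 27.8% higher and 19.9% lower. After Si-FIBP#2, 2 rose (CDH2 and ZEB1) and 2 fell (VIM and FN1), against a background of 48.8% of genes, 31.1% higher and 17.7% lower. CDH2 and VIM passed with each siRNA in the same direction, as did 35.5% of all genes. Passing the test was thus common among all genes, and counts over 6 genes say nothing particular of the members.

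With a change of more than 2-fold also required, limma called 0 of the 6 tested members with either siRNA, although 2 members after Si-FIBP#1 and 4 after Si-FIBP#2 had an unadjusted p below 0.05. The background at that rule was 5.66% of genes after Si-FIBP#1 and 5.05% after Si-FIBP#2. The median log2 difference of the 6 members was 0.027 after Si-FIBP#1 and -0.11 after Si-FIBP#2, beside 0.073 and 0.11 over all tested genes. The sign of both medians depended on the scale, at -0.016 after Si-FIBP#1 in TPM, where every library has the same total, and 0.024 after Si-FIBP#2 in FPM, a length-weighted scale described with FN1. Both siRNAs were compared with the same Scramble samples, so the sets of differences are not independent of each other. The sample titles give replicate numbers only, and nothing in them ties the samples to separate cultures. The p-values therefore set each difference against the spread between these samples, whatever their level of replication.

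**Figure D2:**
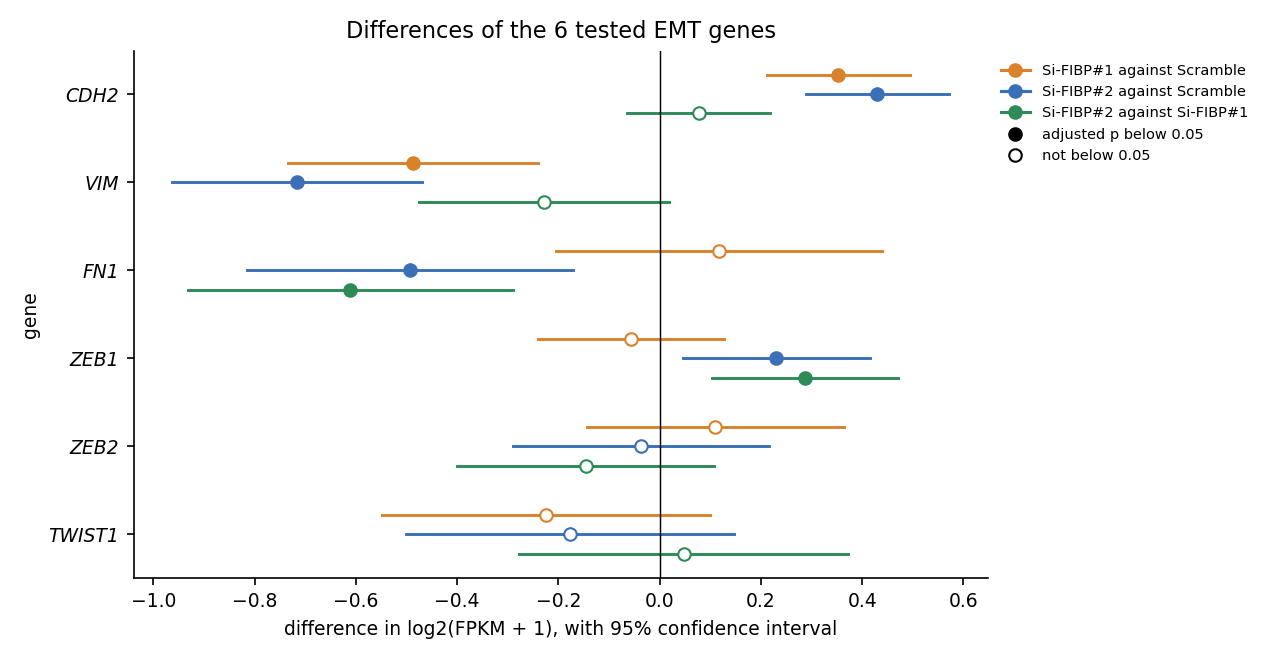
Differences of the 6 tested EMT genes in log2(FPKM + 1), with 95% confidence intervals from limma, for each siRNA against Scramble and for Si-FIBP#2 against Si-FIBP#1. Filled points have an adjusted p below 0.05. CDH2 (0.35 and 0.43) lies right of 0 and VIM (-0.49 and -0.72) left of 0 with both siRNAs, whereas FN1 and ZEB1 are filled for Si-FIBP#2 alone.

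The epithelial members CDH1 and EPCAM were at or near 0 before and after FIBP depletion. CDH1 (chr16:68737225-68835548, plus strand), the adhesion receptor of epithelial adherens junctions, was listed at 0 FPKM in each of the 9 samples for all of its 14 transcripts. EPCAM (chr2:47345158-47387601, plus strand), an epithelial surface glycoprotein, was listed at 0.04, 0 and 0.28 FPKM in Scramble, 0, 0 and 0.10 FPKM after Si-FIBP#1, and 0, 0.04 and 0 FPKM after Si-FIBP#2. These EPCAM values correspond to at most 2 estimated fragments per library, and the groups overlap. No difference in either gene was detectable at this depth.

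CDH2 rose with both siRNAs. It encodes N-cadherin, which replaces E-cadherin at the contacts of mesenchymal cells, and lies on the minus strand at chr18:27950966-28177446. Its level was 13.38, 12.8 and 13.7 FPKM in Scramble, 18.44, 16.92 and 16.43 FPKM after Si-FIBP#1, and 18.13, 18.17 and 18.46 FPKM after Si-FIBP#2. All 6 depleted samples lay above all 3 Scramble samples, which held for 26.3% of tested genes. The means were 13.3 ± 0.46 FPKM (SD, n = 3) in Scramble, 17.3 ± 1.05 after Si-FIBP#1 and 18.3 ± 0.18 after Si-FIBP#2. The log2 difference was 0.35 after Si-FIBP#1 (SE 0.063, limma adjusted p = 0.00138) and 0.43 after Si-FIBP#2 (SE 0.063, adjusted p = 0.000426). Between the siRNAs it was 0.078 (95% confidence interval -0.064 to 0.22, adjusted p = 0.459). The 4016 nt transcript ENST00000269141 carried 76.0%, 79.1% and 73.7% of the CDH2 level in Scramble, Si-FIBP#1 and Si-FIBP#2.

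VIM, by far the most abundant member, fell with both siRNAs. It encodes the intermediate filament protein vimentin and lies on the plus strand at chr10:17228259-17237593. Its level was 3368.8, 3175.45 and 3150.89 FPKM in Scramble, 2454.75, 2297.52 and 2167.81 FPKM after Si-FIBP#1, and 2220.37, 1592.49 and 2152.27 FPKM after Si-FIBP#2. The lowest value came from Si-FIBP#2 replicate 2, and all 6 depleted samples lay below all 3 Scramble samples, which held for 16.5% of tested genes. Mean levels were 3232 ± 119 FPKM (SD, n = 3), 2307 ± 144 and 1988 ± 345 FPKM, so that 71.4% of the Scramble level was left after Si-FIBP#1 and 61.5% after Si-FIBP#2. The log2 difference was -0.49 after Si-FIBP#1 (SE 0.11, limma adjusted p = 0.00512) and -0.72 after Si-FIBP#2 (SE 0.11, adjusted p = 0.000572), with -0.23 between the siRNAs (95% confidence interval -0.47 to 0.019, adjusted p = 0.20). In the bulk RNA, fewer cells with VIM and less VIM RNA per cell cannot be told apart.

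CDH2 and VIM, both mesenchymal markers, therefore changed in opposite directions. Both passed with each siRNA under all 18 other settings tried. Over these settings the log2 difference ranged from 0.26 to 0.39 (Si-FIBP#1) and 0.29 to 0.46 (Si-FIBP#2) for CDH2, and from -0.59 to -0.44 and -0.87 to -0.56 for VIM.

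Nearly all VIM signal belonged to the 1868 nt transcript ENST00000224237, with 98.4% in Scramble, 98.5% after Si-FIBP#1 and 98.1% after Si-FIBP#2. A minor VIM transcript of 2424 nt that the authors assembled moved the other way. It was at 2.2, 1.26 and 2.38 FPKM in Scramble, 5.55, 7.45 and 6.9 FPKM after Si-FIBP#1, and 4.86, 6.03 and 5.21 FPKM after Si-FIBP#2. Scramble did not overlap the depleted samples in this transcript, while the siRNAs overlapped each other. It was singled out after its values were seen and was not tested.

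VIM-AS1, an antisense RNA gene whose annotated span overlaps VIM by 1727 nt on the other strand (chr10:17214239-17229985), rose with both siRNAs. Its level was 5.18, 4.95 and 4.73 FPKM in Scramble, 13.52, 11.42 and 12.97 FPKM after Si-FIBP#1, and 9.49, 12.48 and 12.65 FPKM after Si-FIBP#2. All 6 depleted samples were above all Scramble samples, which held for 26.3% of tested genes. The log2 differences were 1.19 (limma adjusted p = 2.64e-05) and 1.07 (adjusted p = 5.54e-05). The sources used here do not state whether counting used the strand, so reads from VIM and VIM-AS1 in the shared stretch cannot be told apart.

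**Figure D3:**
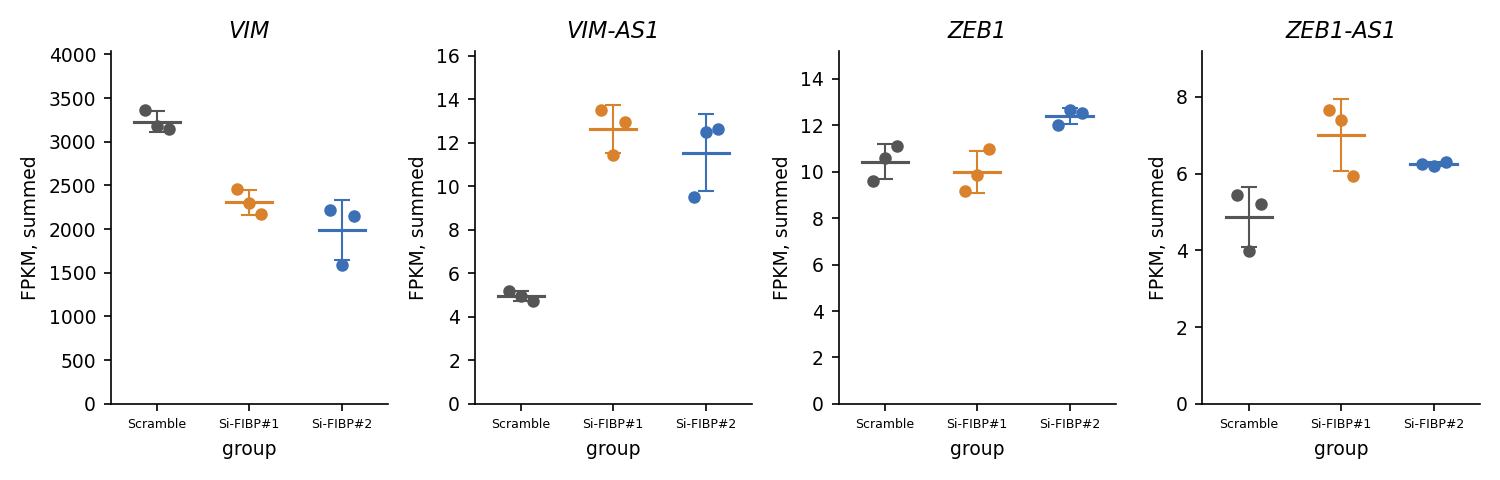
Level in FPKM of VIM, VIM-AS1, ZEB1 and ZEB1-AS1 in each sample (points), with the mean (long bar) and SD (whiskers) of each group of 3. Each panel has its own axis from 0. VIM goes from a mean of 3232 FPKM to 2307 and 1988 FPKM while VIM-AS1 goes from 4.95 to 12.6 and 11.5 FPKM.

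The 250 bases before the VIM start site (RefSeq, GRCh38.p14, chr10:17227991-17228240, plus strand) are shown because VIM had the largest fall among the 6 tested members on the log2(FPKM + 1) scale. Capitals mark its single GC box. GC boxes (GGGCGG, or CCGCCC on the other strand), E-boxes (CAGGTG, or CACCTG on the other strand) and the STAT motif TTCNNNGAA, which reads the same on both strands, were searched from 250 bases before to 50 bases after each start site.
VIM upstream region: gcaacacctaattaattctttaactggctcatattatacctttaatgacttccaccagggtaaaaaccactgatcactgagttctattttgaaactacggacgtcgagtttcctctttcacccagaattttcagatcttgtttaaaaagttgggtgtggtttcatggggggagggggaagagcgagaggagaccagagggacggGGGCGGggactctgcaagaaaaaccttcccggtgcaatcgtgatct

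The promoter table held CDH2, VIM, FN1, ZEB1 and ZEB2. CDH1, EPCAM, SNAI1, SNAI2 and TWIST1 were the other members. VIM had 0 E-boxes and 0 STAT motifs in this window, and so had both CDH2 start sites and the single start sites of FN1 and ZEB2. E-boxes were found at 2 of the 7 ZEB1 start sites, 1 at the first and 3 at the third. FN1 had 6 GC boxes, some of them overlapping. Of 35116 promoters, 20.6% had the E-box, 7.66% the STAT motif and 45.0% the GC box. The E-box of the first ZEB1 start site, 57 bases before it, is shown in capitals, in a stretch within the annotated span of ZEB1-AS1 on the other strand (chr10:31318348-31318377, shown on the plus strand).
ZEB1 E-box: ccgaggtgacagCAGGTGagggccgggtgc

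FN1 fell after Si-FIBP#2 and did not pass after Si-FIBP#1. It encodes fibronectin, a matrix glycoprotein bound by integrins (chr2:215360440-215436172, minus strand). Its level was 11.34, 12.49 and 9.74 FPKM in Scramble, 15.08, 10.61 and 11.22 FPKM after Si-FIBP#1, and 7.26, 8.91 and 6.83 FPKM after Si-FIBP#2. The 3 Si-FIBP#2 samples lay below all other samples, while Si-FIBP#1 overlapped Scramble, with its replicate 1 the highest of all 9. After Si-FIBP#2 the log2 difference was -0.49 (SE 0.14, limma adjusted p = 0.0175), and after Si-FIBP#1 it was 0.12 (95% confidence interval -0.20 to 0.44, adjusted p = 0.53). FN1 also differed between the siRNAs, by -0.61 (SE 0.14, adjusted p = 0.0201), as did 15.4% of all tested genes (0.561% with a change of more than 2-fold). That call was lost with no filter on low values (adjusted p = 0.0636) and without Si-FIBP#1 replicate 1 (0.0596), Si-FIBP#2 replicate 1 (0.0636) or Si-FIBP#2 replicate 3 (0.0757).

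The sum of FPKM gave short FN1 transcripts much weight. The 12 FN1 transcripts of up to 1000 nt took 29.8% of the FN1 level in Scramble, 42.4% after Si-FIBP#1 and 45.2% after Si-FIBP#2. Transcripts over 1000 nt were at 8.38, 7.45 and 7.74 FPKM in Scramble, 8.17, 6.9 and 6.18 FPKM after Si-FIBP#1, and 4.33, 4.08 and 4.19 FPKM after Si-FIBP#2. The long FN1 transcripts were thus lower in Si-FIBP#2 than in any other sample, with little spread.

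In FPM, for which each transcript's FPKM was multiplied by its effective length in kb before summing, FN1 was at 54.8 ± 2.08 (SD, n = 3) in Scramble, 49.4 ± 6.03 after Si-FIBP#1 and 31.6 ± 0.31 after Si-FIBP#2. This scale was chosen after seeing the data. The log2 difference there was -0.77 after Si-FIBP#2 (limma adjusted p = 1.65e-05) and -0.15 after Si-FIBP#1 (adjusted p = 0.119), against 0.12 for the summed FPKM. The direction after Si-FIBP#1 thus turned with the scale and passed on neither. The call after Si-FIBP#2 passed in 14 of 18 other settings. It was lost without Scramble replicate 2 (adjusted p = 0.0652), Si-FIBP#2 replicate 1 (0.0508) or Si-FIBP#2 replicate 3 (0.0618), and with no filter on low values (0.0527).

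**Figure D4:**
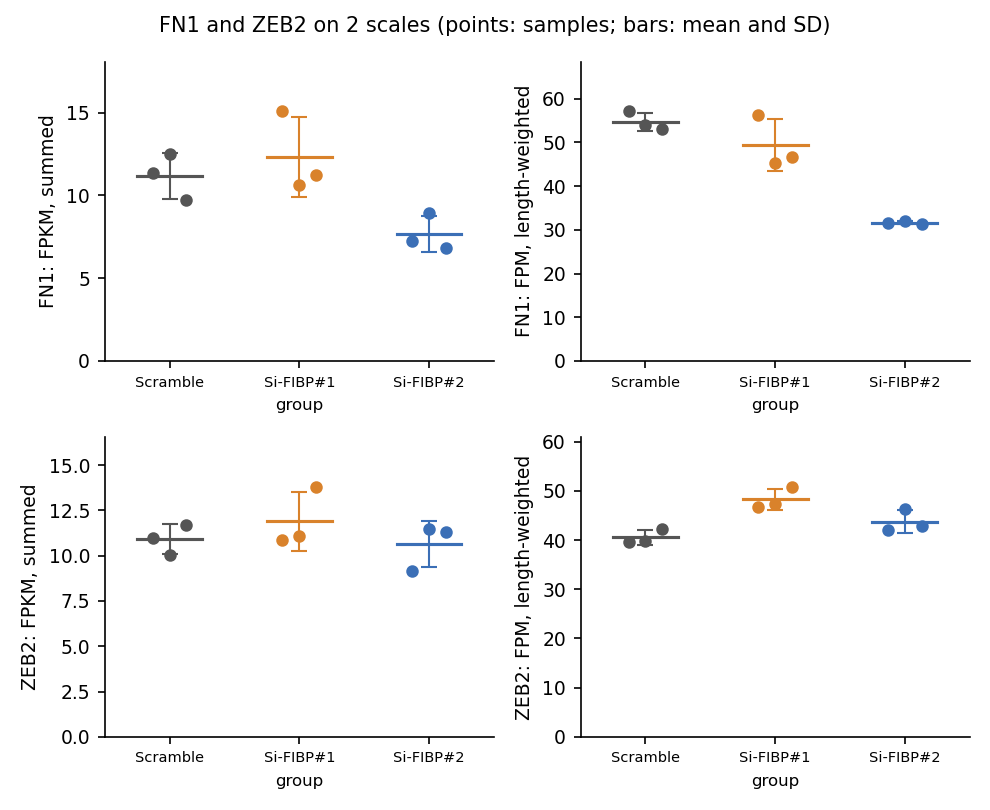
FN1 (top) and ZEB2 (bottom) in each sample, as summed FPKM (left) and as length-weighted FPM (right), with the mean and SD of each group of 3 and axes from 0. The Si-FIBP#2 samples of FN1 lie together near 31.6 FPM, below all other samples, and the Si-FIBP#1 samples of ZEB2 lie above all Scramble samples in FPM while overlapping them in FPKM.

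ZEB1 passed after Si-FIBP#2 by a narrow margin. It encodes a zinc-finger repressor of CDH1 (chr10:31318495-31529814, plus strand). Its level was 9.6, 10.6 and 11.1 FPKM in Scramble, 9.18, 9.85 and 10.97 FPKM after Si-FIBP#1, and 12, 12.68 and 12.52 FPKM after Si-FIBP#2. The Si-FIBP#2 samples lay above all others, and Si-FIBP#1 overlapped Scramble. The log2 difference was 0.23 after Si-FIBP#2 (SE 0.082, limma adjusted p = 0.0412), -0.057 after Si-FIBP#1 (95% confidence interval -0.24 to 0.13, adjusted p = 0.60) and 0.29 between the siRNAs (SE 0.082, adjusted p = 0.0433).

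This ZEB1 call after Si-FIBP#2 held in 9 of 18 other settings, and the difference between the siRNAs in 7 of 18. Scaling by median ratios, which lowers the median of all genes by 0.128 after Si-FIBP#2, brought the ZEB1 difference down to 0.093 (adjusted p = 0.41). It was also lost when Scramble replicate 1 or 2, Si-FIBP#1 replicate 2 or any Si-FIBP#2 replicate was left out (adjusted p = 0.0589 to 0.133). In FPM the ZEB1 log2 difference was 0.21 (adjusted p = 0.00839).

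ZEB1-AS1, an antisense gene that overlaps the 5′ end of ZEB1 by 1953 nt, was at 5.45, 3.98 and 5.2 FPKM in Scramble, 7.67, 7.4 and 5.94 FPKM after Si-FIBP#1, and 6.25, 6.21 and 6.3 FPKM after Si-FIBP#2. It rose after Si-FIBP#1 (log2 difference 0.45, limma adjusted p = 0.0122) and was 0.31 higher after Si-FIBP#2 without passing (adjusted p = 0.0547). In FPM the ZEB1-AS1 difference after Si-FIBP#1 was 0.16 and did not pass (adjusted p = 0.209), and that after Si-FIBP#2 passed without Scramble replicate 1 (0.0402) or Si-FIBP#1 replicate 3 (0.0398).

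ZEB2, the paralog of ZEB1 (chr2:144364364-144524583, minus strand), passed with neither siRNA in FPKM. Its level was 10.97, 10.06 and 11.7 FPKM in Scramble, 10.85, 11.07 and 13.77 FPKM after Si-FIBP#1, and 9.16, 11.45 and 11.32 FPKM after Si-FIBP#2, and all groups overlapped. The log2 difference was 0.11 after Si-FIBP#1 (95% confidence interval -0.14 to 0.36, limma adjusted p = 0.453) and -0.037 after Si-FIBP#2 (95% confidence interval -0.29 to 0.22, adjusted p = 0.812). The ZEB2 level was spread over 35 of its 49 listed transcripts, and none took more than 16.4% of a group mean.

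In FPM, the scale chosen after seeing the data, ZEB2 was at 40.6 ± 1.5 in Scramble, 48.3 ± 2.16 after Si-FIBP#1 and 43.8 ± 2.32 after Si-FIBP#2. The Si-FIBP#1 samples (46.7, 47.3 and 50.7) then lay above the Scramble samples (39.7, 39.8 and 42.3), with a log2 difference of 0.24 (limma adjusted p = 0.00462). After Si-FIBP#2 it was 0.11 (adjusted p = 0.145), the opposite sign to the FPKM value. The ZEB2 result therefore depended on how transcripts were combined.

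TWIST1, a basic helix-loop-helix factor active in mesoderm (chr7:19020991-19117672, minus strand), was at 8.62, 9.49 and 7.32 FPKM in Scramble, 6.48, 8.95 and 6.07 FPKM after Si-FIBP#1, and 6.86, 8.42 and 6.84 FPKM after Si-FIBP#2. The groups overlapped, and replicate 2 was the highest of each group. The log2 difference was -0.22 after Si-FIBP#1 (95% confidence interval -0.55 to 0.10, limma adjusted p = 0.228) and -0.18 after Si-FIBP#2 (95% confidence interval -0.50 to 0.15, adjusted p = 0.338). Without Si-FIBP#1 replicate 2, TWIST1 passed with a difference of -0.38 after Si-FIBP#1 (adjusted p = 0.0443). The 1630 nt transcript ENST00000242261 averaged 5.00, 4.66 and 4.94 FPKM in Scramble, Si-FIBP#1 and Si-FIBP#2, and the 589 nt transcript ENST00000354571 averaged 3.48, 2.18 and 2.26 FPKM.

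SNAI1, the zinc-finger repressor Snail (chr20:49982999-49988886, plus strand), was low throughout. It was at 0.29, 0.28 and 0.33 FPKM in Scramble, 0.09, 0.12 and 0.14 FPKM after Si-FIBP#1, and 0.2, 0.29 and 0.38 FPKM after Si-FIBP#2. The Si-FIBP#1 samples lay below all Scramble samples and Si-FIBP#2 overlapped Scramble. The values rest on 8.9 to 9.9 estimated fragments per library in Scramble, 3.1 to 4.0 after Si-FIBP#1 and 6.0 to 11 after Si-FIBP#2. With no filter on low values the log2 difference was -0.22 after Si-FIBP#1 (limma adjusted p = 0.0291) and -0.013 after Si-FIBP#2 (adjusted p = 0.942), and -0.22 understates the change because of the pseudocount of 1. The difference between the siRNAs was 0.21 (adjusted p = 0.0944), so SNAI1 was not shown to respond differently to them.

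SNAI2, which encodes the related repressor Slug, was higher in every Si-FIBP#2 sample. It was at 0.41, 0.47 and 0.50 FPKM in Scramble, 0.44, 0.72 and 0.63 FPKM after Si-FIBP#1, and 1.95, 0.9 and 1.8 FPKM after Si-FIBP#2. Si-FIBP#2 replicate 2 was well below its group, although still above all Scramble samples, and Si-FIBP#1 overlapped Scramble. The estimated fragments were 16.8 to 20.9 per library in Scramble, 20 to 32.0 after Si-FIBP#1 and 38.0 to 79.5 after Si-FIBP#2. SNAI2 missed the filter because only 2 samples reached 1 FPKM. With no filter the log2 difference was 0.78 after Si-FIBP#2 (SE 0.17, limma adjusted p = 0.0143), 0.13 after Si-FIBP#1 (adjusted p = 0.70) and 0.65 between the siRNAs (adjusted p = 0.0817).

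Among the 6 tested members, levels of CDH2 and VIM were inversely related over the 9 samples (Pearson r = -0.85), as were FN1 and ZEB1 (r = -0.85). These values describe 9 samples that fall into 3 groups and share libraries, and no p is attached. The genes whose pattern over the 9 samples was most like that of a member were BORCS6 (r = 0.992) and RETREG3 (r = 0.991) for CDH2, and NFYC (r = 0.995) and LMNA (r = 0.994) for VIM. For FN1 they were PLPP5 and FARP2 (r = 0.961 for both), and for ZEB1 ZNF680 (r = 0.974) and RINT1 (r = 0.969). The closest to ZEB2 was AC087588.3 (r = 0.945), followed by POLE4 (r = 0.899), and FARP1 (r = 0.930) and DIDO1 (r = 0.889) were closest to TWIST1.

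The wider EMT programme was described with 9 lists of related genes, given as counts passing limma at an adjusted p below 0.05. The lists were chosen with earlier results of these data known, so their counts beside those of all genes are a description only. The 4 list genes TJP3, DSC2, GRHL1 and S100A4 needed the samples where they were high to meet the filter. They are therefore left out of the counts and medians and their values are given with no test, a choice made after seeing the data. The shares of all genes set beside the list counts had no such genes left out, so the filters differ. Among 20 epithelial adhesion and junction genes, 11 were counted, of which 3 rose and 3 fell with each siRNA, 6 of 11, beside 47.7% and 48.8% of all genes passing after Si-FIBP#1 and Si-FIBP#2. The list median was -0.011 and -0.096. TJP3, a tight junction scaffold, was at 0.46, 0.68 and 0.37 FPKM in Scramble, 2.67, 3.06 and 2.58 FPKM after Si-FIBP#1, and 2.44, 2.54 and 3.31 FPKM after Si-FIBP#2. The desmosomal cadherin DSC2 was at 0.91, 1.09 and 1.07 FPKM in Scramble, 2.31, 2.5 and 2.71 FPKM after Si-FIBP#1, and 2, 2.93 and 2.27 FPKM after Si-FIBP#2. Neither gene would have met the filter on its Scramble samples alone, so their separation from Scramble is no support for a rise of junction genes. The counted genes of the list went both ways. With median ratio scaling 5 junction genes were lower after Si-FIBP#2.

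In the list of 10 epithelial keratins, membrane proteases and related genes 5 were tested, none of them a membrane protease. The 3 that passed were lower with each siRNA (19.9% and 17.7% of all genes were), with list medians of -0.53 and -0.49. KRT18, a keratin of simple epithelia, fell from 477.87, 483.13 and 466.87 FPKM in Scramble to 225.5, 207.81 and 192.74 FPKM after Si-FIBP#1 and 197.56, 142.89 and 183.85 FPKM after Si-FIBP#2 (log2 differences -1.19 and -1.45, limma adjusted p = 2.01e-05 and 6.88e-06). Its partner KRT8 fell by 0.53 and 0.49, and AP1M2, an adaptor subunit for basolateral sorting, fell by 1.03 and 0.58. Although CDH1 was silent, these keratins were well expressed in H1299.

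Epithelial transcription and splicing regulators were mostly absent, with 3 of 14 genes past the filter and GRHL2 and MIR200CHG listed at 0 in all samples. Without GRHL1, 2 genes were counted, of which 1 rose and 1 fell after Si-FIBP#1 and 1 rose after Si-FIBP#2, beside 27.8% of all genes higher and 19.9% lower after Si-FIBP#1 and 31.1% higher after Si-FIBP#2. KLF4, a Krüppel-like factor of differentiated epithelia, rose by 0.75 and 0.46. KLF5, a related factor named after its values were seen, fell after Si-FIBP#1 (log2 difference -0.41, limma adjusted p = 0.0127) and did not pass after Si-FIBP#2 (-0.20, adjusted p = 0.164), except with median ratio scaling (-0.32, adjusted p = 0.04). GRHL1, a grainyhead-like factor, was at 0.71, 0.62 and 0.60 FPKM in Scramble, 1.24, 1.44 and 2.75 FPKM after Si-FIBP#1, and 3.24, 2.55 and 2.61 FPKM after Si-FIBP#2.

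All 5 cadherin-binding catenins and linkers were tested, and 1 rose and 2 fell with each siRNA (3 of 5, beside 47.7% and 48.8% of all genes). VCL, which encodes vinculin, fell by 0.42 after Si-FIBP#1 and 0.61 after Si-FIBP#2 (limma adjusted p = 0.000212 and 2.26e-05). CTNNA1 (alpha-catenin) fell after Si-FIBP#1 (log2 difference -0.23, adjusted p = 0.0134), and CTNNB1 (beta-catenin) after Si-FIBP#2 (-0.16, adjusted p = 0.0113). The gene that rose was CTNND1 (p120-catenin) after Si-FIBP#1 (0.33, adjusted p = 0.0031) and AFDN (afadin) after Si-FIBP#2 (0.47, adjusted p = 0.00105), both named after their values were seen. All 5 genes of this list passed between the siRNAs, beside 15.4% of all tested genes. Among them were CTNND1 at -0.43 (adjusted p = 0.00348), CTNNA1 at 0.25 (adjusted p = 0.029) and CTNNB1 at -0.19 (adjusted p = 0.0154). CTNND1 passed between the siRNAs in all 18 other settings, AFDN in 8 of 18 and VCL in only 5 of 18. With median ratio scaling CTNND1 also passed after Si-FIBP#2, as lower (-0.25, adjusted p = 0.00857). AFDN passed after Si-FIBP#1 in 4 of 18 other settings, namely without Scramble replicate 1 (adjusted p = 0.0424), without Si-FIBP#1 replicate 2 (0.0305), with the replicate block (0.0293) and in FPM (0.000515). The CTNNA1 difference was lost in 8 of 18 other settings, and the CTNNB1 difference in 4, namely TPM (adjusted p = 0.0504), the compared groups alone in the fit (0.0532), without Si-FIBP#1 replicate 1 (0.0501) and without Si-FIBP#2 replicate 3 (0.066). List medians were 0.033 and -0.10, and the former was -0.013 in TPM and -0.069 with median ratio scaling.

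Of 25 other mesenchymal adhesion, cytoskeleton and matrix genes 17 were counted, 4 rose and 8 fell after Si-FIBP#1, and 3 rose and 8 fell after Si-FIBP#2. Among all genes 27.8% were higher and 19.9% lower after Si-FIBP#1, and 31.1% and 17.7% after Si-FIBP#2. LGALS1, the lectin galectin-1, fell from 2067.81, 1984.88 and 2002.34 FPKM in Scramble to 894.69, 782.02 and 784.74 FPKM after Si-FIBP#1 and 1375.82, 819.35 and 1272.45 FPKM after Si-FIBP#2 (log2 differences -1.30 and -0.84, limma adjusted p = 0.000144 and 0.00193). TPM1 (tropomyosin 1) fell by 1.11 and 1.00, and the receptor tyrosine kinase AXL by 0.99 and 0.50. S100A4, a calcium-binding protein, was at 3, 2.54 and 3.04 FPKM in Scramble, 0.96, 0.35 and 1.15 FPKM after Si-FIBP#1, and 1.27, 0 and 0.61 FPKM after Si-FIBP#2.

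Other mesenchymal genes went up. FBN1, the matrix protein fibrillin-1, rose from 10.2, 7.77 and 12.12 FPKM in Scramble to 44.28, 41.08 and 40.12 FPKM after Si-FIBP#1 and 29.8, 37.7 and 30.76 FPKM after Si-FIBP#2 (log2 differences 1.98 and 1.63, limma adjusted p = 4.84e-06 and 1.78e-05). NT5E, the surface nucleotidase CD73, rose by 0.41 and 0.91, and the protease inhibitor TIMP1 by 0.27 and 0.50. CD44 differed by 0.13 and 0.11 without passing (adjusted p = 0.163 and 0.213), and by -0.047 with each siRNA in FPM. Without Si-FIBP#2 replicate 2, CD44 passed with both siRNAs (0.13, adjusted p = 0.0302, and 0.20, adjusted p = 0.00814), and with the compared groups alone in the fit it passed after Si-FIBP#1 (0.0466). The list median of -0.17 and -0.20 was below that of all genes, but the list held changes both ways, as did the mesenchymal members CDH2 and VIM.

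Of 16 other EMT-associated transcription factors 10 were tested, and the 4 that passed with each siRNA were all lower (list medians -0.27 and -0.20). These 4 of 10 stand beside 47.7% and 48.8% of all genes passing in either direction and 19.9% and 17.7% being lower. TCF3, an E-box binding partner of TWIST1, fell by 0.57 and 1.05 (limma adjusted p = 0.00156 and 4.17e-05), ETS1 by 0.45 and 0.34 (the latter lost with Ensembl transcripts alone, adjusted p = 0.0663), and the chromatin protein HMGA2 by 0.19 and 0.24. The HMGA2 call was lost in 9 of 18 other settings after Si-FIBP#1 and in 2 of 18 after Si-FIBP#2.

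All 11 genes for corepressors recruited by SNAI and ZEB factors were tested. Those that passed were lower, 6 after Si-FIBP#1 and 7 after Si-FIBP#2, with medians of -0.19 and -0.36, beside 19.9% and 17.7% of all genes lower. EZH2, the methyltransferase of Polycomb repressive complex 2, was at 38.72, 34.92 and 36.55 FPKM in Scramble, 18.59, 18.51 and 18.3 FPKM after Si-FIBP#1, and 28.67, 24.34 and 27.15 FPKM after Si-FIBP#2 (log2 differences -0.95 and -0.45, limma adjusted p = 5.89e-06 and 0.000605). The H3K9 methyltransferase SUV39H1 fell by 0.69 and 0.68, CTBP2, which binds ZEB1 directly, by 0.61 and 0.72, and HDAC2 by 0.35 and 0.36. HDAC1 fell after Si-FIBP#2 (-0.37, adjusted p = 0.014) and was 0.23 higher after Si-FIBP#1 without passing (adjusted p = 0.091). The HDAC1 call after Si-FIBP#2 was lost without Si-FIBP#2 replicate 1 (adjusted p = 0.0502) or 3 (0.0531). The higher level after Si-FIBP#1 passed without Si-FIBP#2 replicate 2 (adjusted p = 0.00137) and with the compared groups alone in the fit (0.00316).

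Genes for kinases, ubiquitin ligases and other proteins acting on the SNAI1 protein were higher where they passed, 4 of 9 after Si-FIBP#1 and 7 of 9 after Si-FIBP#2 (medians 0.22 and 0.28), beside 27.8% and 31.1% of all genes higher. The list was not split by the effect that each protein has on SNAI1. BTRC, the beta-TrCP ligase that recognises phosphorylated Snail, rose by 0.53 and 0.61 (limma adjusted p = 0.000249 and 0.000111), FBXW7 by 0.34 (lost in 7 of 18 other settings) and 0.41, and COPS2, a COP9 signalosome subunit, by 0.30 and 0.28. These counts depended on scaling. With median ratio scaling 2 rose and 1 fell after Si-FIBP#1, and 1 rose after Si-FIBP#2, where FBXW7 (0.28, adjusted p = 0.0775) and COPS2 (0.13, adjusted p = 0.0965) no longer passed.

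Of 4 neighbouring antisense genes 3 were tested, 3 rose after Si-FIBP#1 and 2 after Si-FIBP#2 (medians 0.54 and 0.46, beside 27.8% and 31.1% of all genes higher), among them VIM-AS1 and SNAI3-AS1 (0.54 and 0.46, limma adjusted p = 0.00802 and 0.0181). With median ratio scaling only VIM-AS1 passed after Si-FIBP#2. The SNAI3-AS1 call after Si-FIBP#2 was also lost without Scramble replicate 1 (adjusted p = 0.0513) or 2 (0.0681) or Si-FIBP#2 replicate 1 (0.0634).

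**Figure D5:**
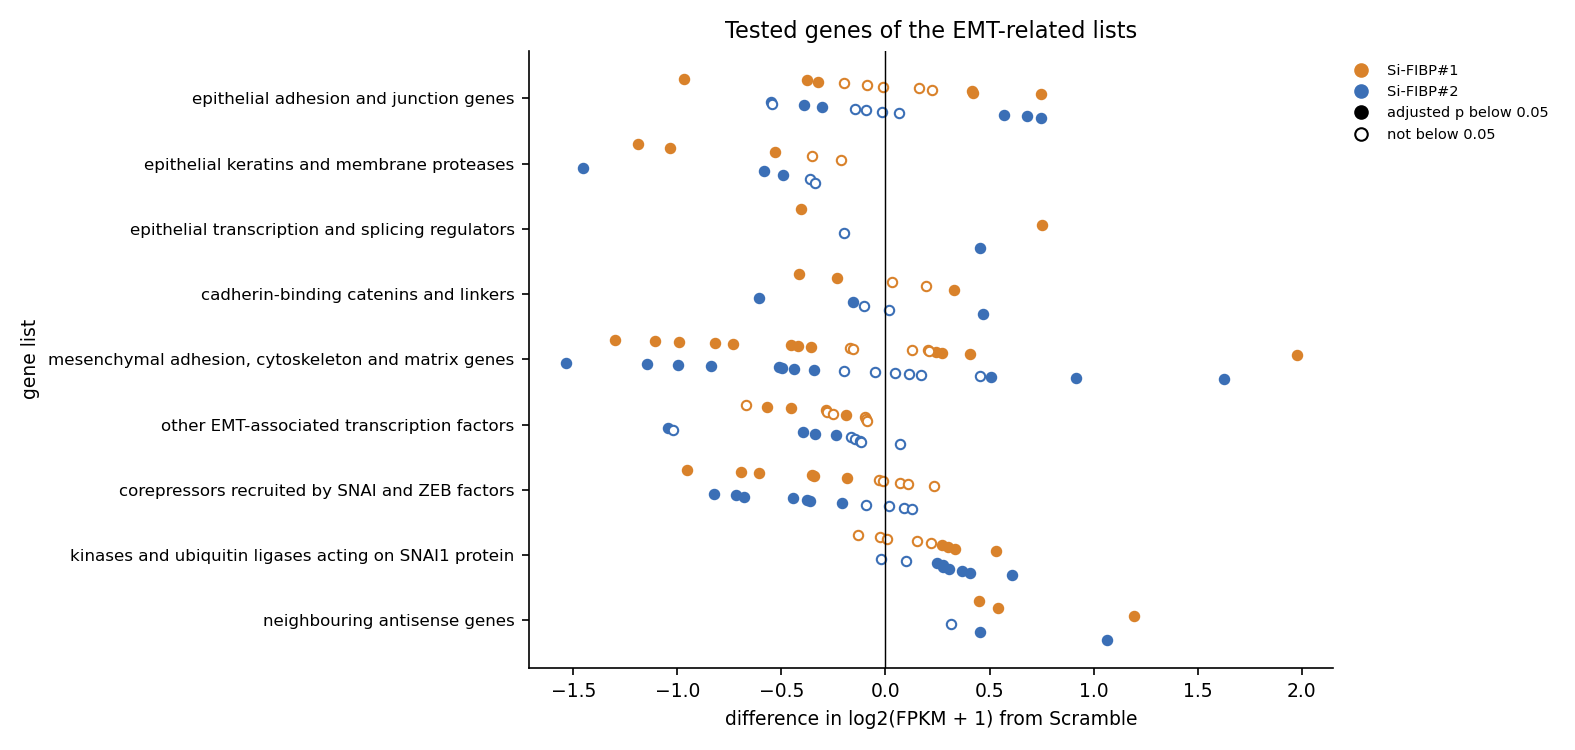
Difference from Scramble in log2(FPKM + 1) of each counted gene of the 9 EMT-related lists (TJP3, DSC2, GRHL1 and S100A4 are not plotted), orange for Si-FIBP#1 and blue for Si-FIBP#2, with filled points at an adjusted p below 0.05. Filled points lie on both sides of 0 for junction and mesenchymal genes (FBN1 at 1.98 and 1.63, LGALS1 at -1.30 and -0.84). They lie only left of 0 for the list of keratins and proteases (in which no protease was tested), other transcription factors and corepressors.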

How the data were processed

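RNA-seq of H1299 cells was analysed in 3 groups of 3 samples (Scramble, Si-FIBP#1, Si-FIBP#2). The authors deposited 1 table per sample with 244443 transcripts and 1 expression value each, taken from its values to be FPKM. The submitters' processing notes name HISAT2 and StringTie, while versions, genome build, annotation and strand setting are not given in the sources used here. Assembled transcripts made up 5.45 to 5.84% of the summed FPKM. No read counts were used. Depth was estimated from steps between low values, of which 83.2 to 90.4% lay within 0.15 of a whole number, and limits the precision of SNAI1, SNAI2 and EPCAM most.

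FPKM was summed over the transcripts of each gene. The 14985 genes that reached 1 FPKM in 3 or more samples were tested on log2(FPKM + 1), which understates changes of low genes, with limma 3.58.1 (R 4.3.3, empirical Bayes with trend, all 9 samples in 1 fit, two-sided, Benjamini-Hochberg adjustment). The threshold was an adjusted p below 0.05, and a 2-fold change was added where stated. The code of the fit was tried on simulated data with independent noise and a fixed shift in a small part of the genes. That trial does not test whether the fit suits these data. Tables and figures used Python 3.11.15, pandas 2.3.3, numpy 2.4.6 and matplotlib 3.10.9. Members and gene lists were chosen with earlier results of these data known. Named were the 10 members, FIBP, up to 3 genes per list with the largest changes past the threshold with both siRNAs, list genes above 100 FPKM in Scramble, and the 2 genes most like each tested member. ZEB1-AS1, MIR200CHG, GRHL2, KLF5, CTNND1, AFDN and the assembled VIM transcript were named in addition after their values were seen. Genes withheld from the text are counted in their lists but not reported here. Alternatives were another pseudocount, other filters, TPM, median ratio scaling, fewer samples in the fit, no fold threshold, Ensembl transcripts alone, a replicate block, leaving out each sample and, chosen after seeing the data, FPM (transcript FPKM times effective length in kb, summed, with effective length taken as length minus the 270 to 300 nt that best gave whole fragments). Gene positions and 3′ UTRs came from GENCODE release 29 (GRCh38), and microRNA and promoter sequences from RefSeq (GRCh38.p14).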

Additional observations from a re-analysis of the deposited data

Results flagged for a closer look

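The differences listed here, Si-FIBP#2 minus Si-FIBP#1 on the log2(FPKM + 1) scale, passed limma's test of the difference between the siRNAs. Among the members, FN1 was lower with Si-FIBP#2 (-0.611, adjusted p = 0.0201) and ZEB1 higher (0.288, adjusted p = 0.0433). Higher with Si-FIBP#2 were also AP1M2 (0.45, adjusted p = 0.0177), CTNNA1 (0.248, 0.029), AFDN (0.271, 0.048), AXL (0.497, 0.00284), NT5E (0.508, 0.00658), TIMP1 (0.235, 0.00737) and EZH2 (0.507, 0.00193). Lower were VCL (-0.189, adjusted p = 0.044), CTNNB1 (-0.19, 0.0154), CTNND1 (-0.433, 0.00348), TCF3 (-0.476, 0.0151) and HDAC1 (-0.608, 0.00531). AP1M2, AXL and EZH2 fell with both siRNAs and less with Si-FIBP#2, NT5E and TIMP1 rose with both and more with Si-FIBP#2, and VCL and TCF3 fell with both and more with Si-FIBP#2. Of 18 other settings, the difference passed in 5 for VCL, 7 for ZEB1, 8 for AFDN, 10 for CTNNA1, 14 for FN1 and CTNNB1, 15 for AP1M2, 17 for TCF3, and 18 for AXL, NT5E, TIMP1, EZH2, HDAC1 and CTNND1. It was lost for AP1M2 without Si-FIBP#1 replicate 1 (adjusted p = 0.0615) or Si-FIBP#2 replicate 1 (0.0626) or 3 (0.0507), and for TCF3 without Si-FIBP#1 replicate 1 (0.0581).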

How the results depend on the processing

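The calls of CDH2 and VIM held under every alternative run, and those of FN1 and ZEB1 with Si-FIBP#2 did not. Genes past a 2-fold change numbered 848 (382 higher, 466 lower) with Si-FIBP#1, 757 (438, 319) with Si-FIBP#2, 721 (354, 367) with both siRNAs together and 84 (40, 44) between the siRNAs. With a pseudocount of 0.1 they were 1498 (849, 649), 1411 (953, 458), 1418 (891, 527) and 172 (105, 67), and with no fold threshold 7146, 7309, 7938 and 2304. Median ratio scaling shifted the median of all genes by -0.0878, -0.128, -0.107 and -0.0413 and changed the split to 297 higher and 564 lower, 291 and 481, 252 and 490, and 33 and 49. Leaving out 1 sample gave 75 to 132 genes between the siRNAs (132 without Si-FIBP#2 replicate 2).

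Members passing with Si-FIBP#1 numbered 2 to 3 when 1 sample was left out (3 without Si-FIBP#1 replicate 2). Those passing with Si-FIBP#2 numbered 2 to 4 when 1 sample was left out (2 without Scramble replicate 2 or Si-FIBP#2 replicate 1 or 3). With both siRNAs together 4 passed in FPM, a scale chosen after seeing the data. Between the siRNAs 0 passed in limma with no filter (with the filter, 2 had an unadjusted p below 0.05), 1 with median ratio scaling, with the groups compared alone or with Ensembl transcripts alone, and 0 to 2 when 1 sample was left out (0 without Si-FIBP#1 replicate 1 or Si-FIBP#2 replicate 1 or 3, and 1 without Scramble replicate 2 or 3, Si-FIBP#1 replicate 2 or Si-FIBP#2 replicate 2).

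Directions turned only for differences that had not passed. FN1 with Si-FIBP#1 was -0.027 (without Si-FIBP#1 replicate 1) to 0.21 when 1 sample was left out, and -0.15 in FPM. ZEB1 with Si-FIBP#1 became 0.0047 with Ensembl transcripts alone. ZEB2 with Si-FIBP#2 became 0.011 without Scramble replicate 3, 0.059 without Si-FIBP#2 replicate 1 (lowest when 1 sample was left out, -0.089) and 0.11 in FPM. TWIST1 between the siRNAs became -0.0078, -0.048 and -0.04 without Si-FIBP#1 replicate 1, Si-FIBP#1 replicate 3 and Si-FIBP#2 replicate 2 (highest 0.20). CTNNA1 with Si-FIBP#2 became -0.13 with median ratio scaling and -0.038 without Si-FIBP#2 replicate 2 (highest 0.044), CTNNB1 with Si-FIBP#1 became -0.013 in TPM and -0.069 with median ratio scaling, and CD44 became -0.047 with either siRNA in FPM and -0.037 with Si-FIBP#2 under median ratio scaling. The cause was not tested.

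The replicate numbers were not taken to pair the samples. Deviations of samples with the same number correlated at -0.0568 to 0.103, and 8 of 9 samples correlated best with their own number, a hint from the data and not from the design. With the replicate block, 853, 760, 725 and 88 genes and 2, 4, 2 and 2 members were called. Under this block AFDN passed after Si-FIBP#1 (0.195, limma adjusted p = 0.0293), and the VCL difference between the siRNAs was lost (adjusted p = 0.0645).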
